A study of Brachypodium distachyon with 214 samples.

Results

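Soil drying was compared with full watering in leaves of Bd3-1, an inbred accession of the annual grass Brachypodium distachyon. Of the 214 leaf libraries of the series, 1 per plant, those with a title beginning with Bd3-1 were used here: 59 from droughted plants and 58 from control plants. Watering diverged on day 33 after sowing, when droughted plants began to lose 5% of field capacity (the water a soil holds after free drainage) a day until they reached 55% after 6 days, whereas control plants were returned nightly to 85%. The other 97 libraries, from 49 droughted and 48 control plants of the accession Bd21 given the same treatments, serve only to ask whether a response differed between the accessions. Leaves were sampled whole, so every value is a bulk measurement over all leaf cell types, and Bd3-1 is a single inbred line. Of the 32523 rows of the count table, 24633 had a count above 0 in more than 10 of these plants and were tested.

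Drying soil raises abscisic acid (ABA), the hormone that closes stomata and switches on protective genes. ABA is cut from carotenoids by 9-cis-epoxycarotenoid dioxygenases (NCED) and inactivated by CYP707A hydroxylases. In Arabidopsis its signal is held back by protein phosphatases such as HAB1 and HAB2 and passed on by bZIP and homeobox transcription factors. Among its targets are dehydrins and other late embryogenesis abundant (LEA) proteins, small hydrophilic proteins that protect membranes and enzymes as cells lose water. Drought is also known to lower transcripts of photosynthesis in grasses. Loci are named as the count table gives them, the digit after the prefix being the chromosome, and roles are those the study's text assigns, mostly through orthologs in Arabidopsis or rice. No role is given for loci that the study's text does not describe.

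The library of droughted replicate 59 stood apart from its label. From control plants alone, 33 loci were detected in every Bd21 library, averaged at least 10 normalized counts there and never exceeded 3 counts in Bd3-1. Droughted replicate 59 held counts of all 33, 609.6 in sum, whereas the other 58 droughted Bd3-1 plants held 2 to 27.3 and droughted Bd21 plants 460.0 to 1614. For the 9 loci with the opposite pattern it held 3 counts, against 38 to 305 in the other droughted Bd3-1 plants. It was kept as labelled, and the main values that it moved are also given without it. Depth was similar between treatments: the total count was 0.525 to 2.89 M (median 1.92 M) in droughted plants and 1.10 to 2.72 M (median 1.88 M) in control plants, a difference in log2 total of 0.054 (2-sided permutation test with 100000 resamples, adjusted p = 0.417). Plastid sequences took 6.92% ± 0.927 of counts in droughted plants and 7.19% ± 0.938 in control plants (SD, n = 59 and 58; adjusted p = 0.238, 2-sided permutation test, adjusted over these 2 measures). All 48 loci examined of the light-reaction module passed the filter. The study drew that module from transcripts that varied among these plants, so this does not test the tissue.

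Treatment was the main axis of variation among Bd3-1 leaves. Principal component 1 (PC1), computed on log2 of counts normalized by relative log expression (RLE) plus 1, carried 9.13% of the variance and separated all 59 droughted plants from all 58 control plants. Scores ranged from -1.25 to 43.8 (median 27.0) in droughted plants and from -40.9 to -11.0 (median -25.9) in control plants. The means were 25.1 ± 12.3 in droughted plants and -25.5 ± 5.93 in control plants (SD, n = 59 and 58), a difference of 50.6 (2-sided permutation test with 100000 resamples, adjusted p = 2e-05, the smallest it can give here after adjustment). PC2, with 3.64% of the variance, did not separate the treatments detectably (difference 2.55, adjusted p = 0.426). Droughted plants were also more scattered along PC1: the mean absolute deviation from the group median was 9.96 in droughted plants and 4.65 in control plants (difference 5.31, permutation p = 1e-05, the smallest possible). Without replicate 59 the corresponding deviations were 10.1 in droughted plants and 4.66 in control plants, and 10 of the remaining 58 droughted plants scored below 10.

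**Figure D1:**
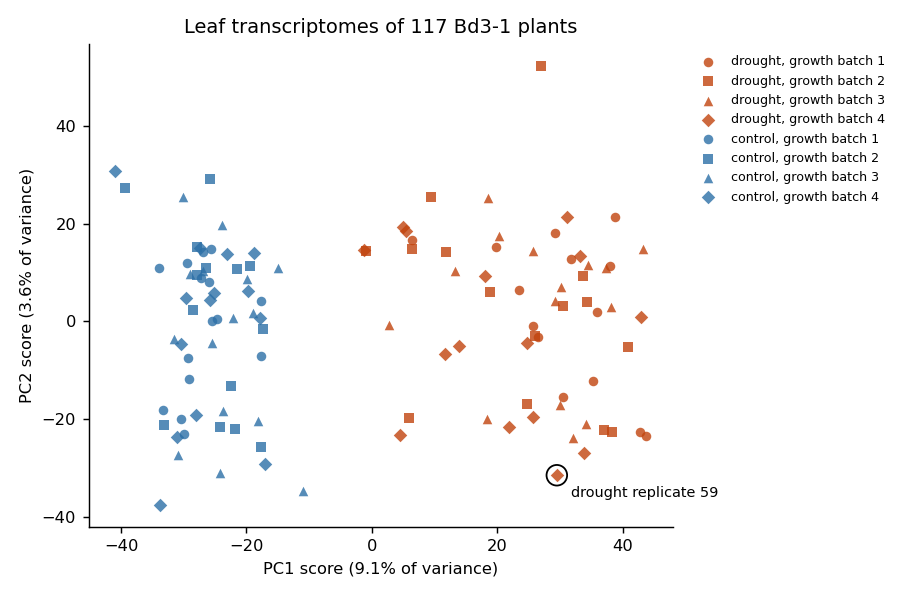
Scores of the Bd3-1 plants (59 drought, 58 control) on PC1 (x axis, 9.13% of variance) and PC2 (y axis, 3.64%), 1 point per plant, orange for drought and blue for control, with the marker giving the growth batch and a ring around droughted replicate 59. The 59 droughted plants lie at -1.25 or above on PC1 and the 58 control plants at -11.0 or below.

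Drought changed the abundance of 8065 of 24633 transcripts (edgeR quasi-likelihood test, Benjamini-Hochberg adjusted p under 0.05), 32.7% of those tested. Of these, 4170 (16.9% of all tested) were higher and 3895 (15.8%) lower in droughted plants. Most changes were small: the typical size of a log2 change (median without regard to sign) was 0.38 among called genes, beside 0.19 over all genes tested. At least 2-fold changes were called for 574 genes (2.33%) that rose and 390 (1.58%) that fell, and at least 4-fold changes for 90 that rose and 24 that fell. Without replicate 59 there were 4135 genes up and 3946 down, of which 547 rose and 401 fell at least 2-fold. Scaling by library totals alone, without TMM factors, put the median log2 fold change of all genes at 0.052, beside 0.0084 with TMM factors, and gave 5117 genes up and 3120 down, so the balance between rising and falling genes depends on the scaling. Calls were more frequent among abundant transcripts: 46.6% of the 11923 genes with a mean of at least 10 normalized counts were called, against 19.7% of those below.

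Only 4 genes, 0.0162% of those tested, had no overlap between the treatments, and all 4 were higher in every droughted plant than in any control plant. Bradi4g39520, the ortholog of the ABA-induced repressor AtAITR3, which dampens ABA responses in Arabidopsis, ranged from 24.6 to 96.5 normalized counts (median 52.7) in droughted plants, against 1.15 to 13.6 (median 5.41) in control plants. Bradi1g51245, for which no role is given, ranged from 62.1 to 259 normalized counts (median 149) in droughted plants, against 12.8 to 53.0 (median 30.6) in control plants. Bradi2g54810, likewise without a role, ranged from 19.02 to 59.7 normalized counts (median 43.3) in droughted plants, against 1.83 to 18.96 (median 7.68) in control plants, so its margin was narrow. The fourth, Bradi3g50220, the ortholog of the ABA-responsive homeobox factor ATHB-7, ranged from 36.3 to 169 normalized counts (median 80.6) in droughted plants, against 0 to 26.6 (median 11.5) in control plants. Its estimates are uncertain, because 95.7% of them were not whole numbers, which means that its reads were shared with other transcripts. The log2 fold changes were 3.17 ± 0.09 for Bradi4g39520 (SE, edgeR adjusted p = 1.05e-60), 2.29 ± 0.08 for Bradi1g51245 (edgeR adjusted p = 1.27e-53), 2.30 ± 0.10 for Bradi2g54810 (edgeR adjusted p = 2.21e-45) and 2.78 ± 0.09 for Bradi3g50220 (edgeR adjusted p = 3.45e-54). Leaving out replicate 59 gave 4 such genes as well.

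**Figure D2:**
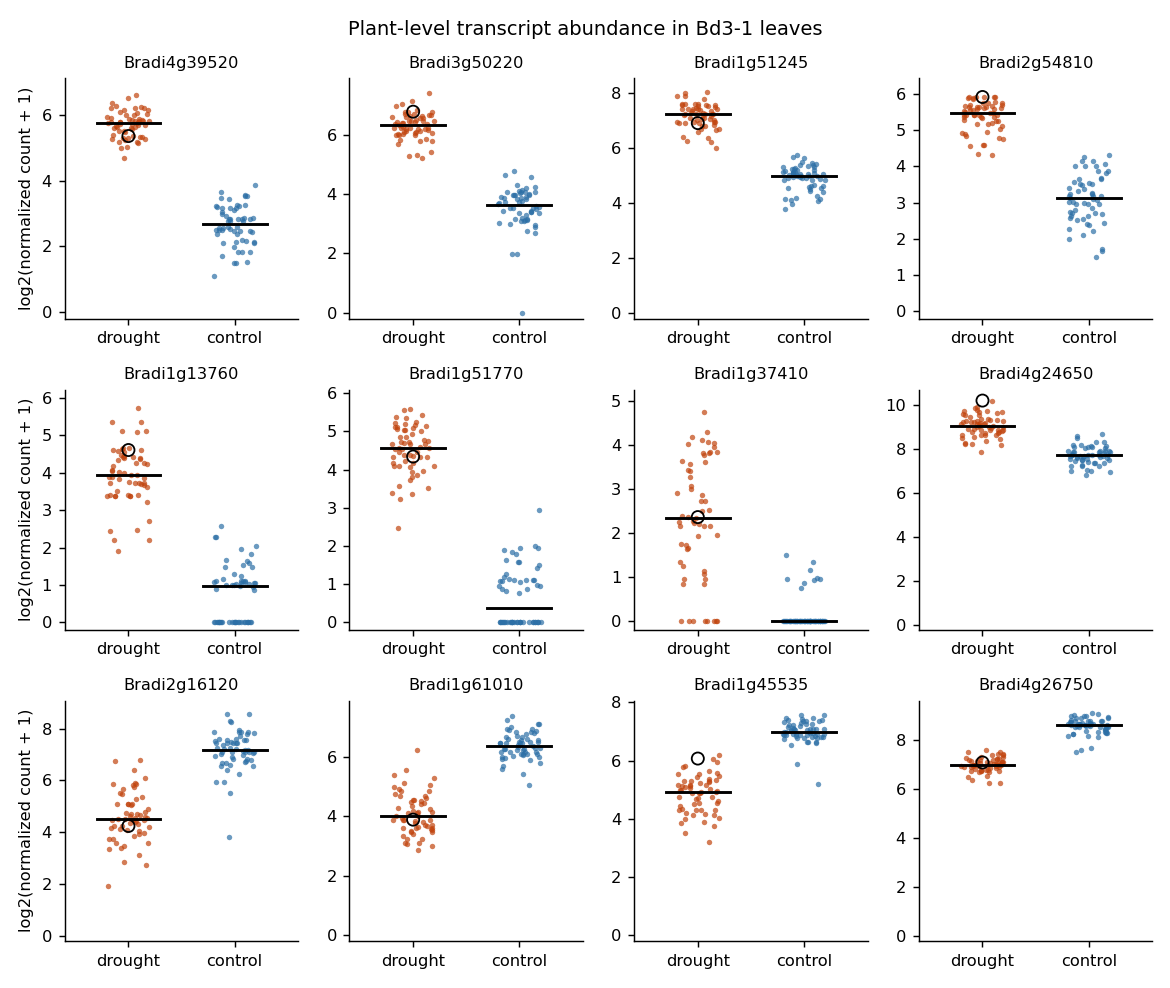
Log2(normalized count + 1) of 12 loci in each Bd3-1 plant, drought (orange, n = 59) left of control (blue, n = 58), with a black line at the median and a ring around droughted replicate 59. The top row holds the 4 loci whose groups do not overlap, the middle row ABA and dehydration loci that rose, and the bottom row loci that fell.

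The ABA and drought loci were higher with 1 exception. Of 13 loci that the study's text names, 12 (92.3%, against 16.9% of all genes tested) were higher in droughted plants and none was lower past the threshold, with a median log2 fold change of 1.66, beside 0.0084 over all genes tested. Summed over the list, normalized counts were 375 to 1028 (median 584) in droughted plants, against 147 to 292 (median 197) in control plants, so the sums did not overlap. The study drew this list from a module of droughted Bd21 plants in the same series. The count is thus not independent evidence of the list's direction. For synthesis, the NCED ortholog Bradi1g13760 ranged from 2.74 to 51.9 normalized counts (median 14.4) in droughted plants, against 0 to 5.01 (median 0.968) in control plants. All 59 droughted plants were above the control median and 54 above the highest control plant (log2 fold change 3.90 ± 0.20 (SE), edgeR adjusted p = 5.51e-37). For inactivation, the ABA 8'-hydroxylase ortholog Bradi3g52660 changed much less and overlapped widely, with 37.4 to 131 normalized counts (median 71.2) in droughted plants, against 20.4 to 91.3 (median 42.1) in control plants. Bradi3g52660 had a log2 fold change of 0.70 ± 0.08 (SE, edgeR adjusted p = 1.14e-13). Its highest value was that of replicate 59, and the other droughted plants held at most 122. Transcripts for both making and breaking down ABA were thus higher in droughted plants.

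Loci for regulators of the ABA signal were also higher. The phosphatase orthologs both rose: Bradi2g18510 (HAB1) ranged from 38.8 to 135 normalized counts (median 74.8) in droughted plants, against 12.1 to 47.9 (median 21.8) in control plants, and Bradi2g41950 (HAB2) from 27.0 to 91.6 normalized counts (median 52.7) in droughted plants, against 8.77 to 32.9 (median 22.6) in control plants. For HAB1 53 of 59 droughted plants exceeded the highest control plant (log2 fold change 1.66 ± 0.08 (SE), edgeR adjusted p = 1.49e-40), and for HAB2 56 of 59 (log2 fold change 1.24 ± 0.07 (SE), edgeR adjusted p = 3.27e-34). Bradi2g15940, the ortholog of the bZIP factor AtGBF2, ranged from 10.04 to 53.4 normalized counts (median 22.3) in droughted plants, against 1.13 to 18.4 (median 6.82) in control plants. Bradi2g15940 had a log2 fold change of 1.64 ± 0.10 (SE, edgeR adjusted p = 3.76e-29). Of the loci linked to stomatal movement, Bradi3g39800 had a log2 fold change of 1.87 ± 0.10 and Bradi2g20660 of 1.05 ± 0.08 (SE, edgeR adjusted p = 4.86e-35 and 8.30e-23). The wax biosynthesis locus Bradi2g23740 is the exception in this list, at 20.9 to 75.7 normalized counts (median 39.2) in droughted plants, against 16.3 to 75.8 (median 41.6) in control plants. Bradi2g23740 had a log2 fold change of -0.06 ± 0.08 (SE, edgeR adjusted p = 0.617). Its estimates are uncertain, 72.6% of them not being whole.

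Protective proteins gave some of the steepest rises. The LEA locus Bradi1g51770 ranged from 4.56 to 47.4 normalized counts (median 22.7) in droughted plants, against 0 to 6.69 (median 0.344) in control plants, and 58 of 59 droughted plants exceeded every control plant (log2 fold change 4.61 ± 0.18 (SE), edgeR adjusted p = 1.93e-47). It was detected in all 59 droughted plants but in only 29 of 58 control plants. The RAB18 orthologs, which encode dehydrins, were close to absent from watered leaves: Bradi1g37410 was detected in 51 of 59 droughted plants and 9 of 58 control plants, and Bradi3g43870 in 54 of 59 and 12 of 58. Bradi1g37410 ranged from 0 to 26.0 normalized counts (median 4.07) in droughted plants, against 0 to 1.81 (median 0) in control plants (log2 fold change 4.50 ± 0.35 (SE), edgeR adjusted p = 1.09e-22), so its fold change rests on few counts and some droughted leaves showed none. Bradi3g43870 ranged from 0 to 24.5 normalized counts (median 3.40) in droughted plants, against 0 to 3.65 (median 0) in control plants. Bradi3g43870 had a log2 fold change of 3.41 ± 0.32 (SE, edgeR adjusted p = 6.97e-18). Bradi4g24650, the ortholog of rice ASR5, a protein of the family induced by ABA, stress and ripening, was far more abundant, at 234 to 1185 normalized counts (median 538) in droughted plants, against 111 to 414 (median 211) in control plants. Replicate 59 held the highest of these values, and the other droughted plants at most 958. Bradi4g24650 had a log2 fold change of 1.37 ± 0.08 (SE, edgeR adjusted p = 1.48e-31). By median normalized count ASR5 exceeded both dehydrins in droughted leaves. Tags near the 3′ end need no scaling by transcript length, but whether these loci were captured and mapped equally was not tested. Bradi1g44480, the ortholog of IAR4, in Arabidopsis a subunit of mitochondrial pyruvate dehydrogenase, rose too (log2 fold change 1.84 ± 0.13 (SE), edgeR adjusted p = 8.07e-27). Thus all 4 loci of this list of dehydrin, ASR5 and IAR4 orthologs were called higher. So were all 13 of the study's drought-only module, beside 16.9% of all genes tested. The lists are not separate, since Bradi1g37410 and Bradi1g44480 are in both. The study chose the lists on plants of this series, the drought-only module in droughted plants of both accessions. The module's median log2 fold change was 2.45 and its summed abundance was 107 to 655 (median 337) in droughted plants, against 39.3 to 199 (median 63.7) in control plants. In the module lists, the largest rise or fall named is always that among called loci with a mean of at least 10 normalized counts. In the drought-only module this was Bradi2g17530 (log2 fold change 3.24 ± 0.18 (SE), edgeR adjusted p = 4.24e-34).

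The rise of greatest size among well-measured genes was that of Bradi4g40850, a locus of unknown function. It ranged from 1.19 to 184 normalized counts (median 24.6) in droughted plants, against 0 to 3.45 (median 0) in control plants (log2 fold change 5.46 ± 0.33 (SE), edgeR adjusted p = 5.44e-31), and droughted plants differed widely among themselves. After the LEA locus came Bradi2g45054 (log2 fold change 3.74 ± 0.15 (SE), edgeR adjusted p = 3.66e-46) and Bradi3g00910 (log2 fold change 3.68 ± 0.19 (SE), edgeR adjusted p = 4.05e-36), of which Bradi3g00910 is uncertain because 58.3% of its estimates were not whole. Bradi1g46710, a member of the chlorophyll and terpenoid module, reached 21.4 to 439 normalized counts (median 114) in droughted plants, against 3.12 to 49.9 (median 12.0) in control plants (log2 fold change 3.16 ± 0.17 (SE), edgeR adjusted p = 1.37e-35), and Bradi4g42400, a member of the drought-only module, 9.32 to 145 normalized counts (median 34.05) in droughted plants, against 0.825 to 9.72 (median 4.43) in control plants. Bradi4g42400 had a log2 fold change of 2.92 ± 0.14 (SE, edgeR adjusted p = 2.96e-39). The highest value of Bradi4g42400 was that of replicate 59, and the highest of the other droughted plants was 78.0. Among abundant transcripts that changed at least 2-fold, Bradi2g54400 stood first, at 1616 to 5208 normalized counts (median 3498) in droughted plants, against 670.0 to 2299 (median 1153) in control plants, with 56 of 59 droughted plants above every control plant (log2 fold change 1.54 ± 0.07 (SE), edgeR adjusted p = 6.77e-45). Bradi4g25750 followed at 783 to 3823 normalized counts (median 1747) in droughted plants, against 235 to 1788 (median 568) in control plants (log2 fold change 1.47 ± 0.11 (SE), edgeR adjusted p = 1.06e-24) and Bradi2g17680 at 466 to 1914 normalized counts (median 1092) in droughted plants, against 143 to 1589 (median 391) in control plants. Bradi2g17680 had a log2 fold change of 1.28 ± 0.10 (SE, edgeR adjusted p = 3.94e-23). Bradi2g17680 overlapped most, since only 5 droughted plants exceeded its highest control plant.

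The largest falls were smaller than the largest rises, although the median log2 fold change was -0.39 among genes called lower and 0.37 among genes called higher, and no falling gene was free of overlap between the treatments. Bradi2g16120 fell most among well-measured genes, with 2.81 to 110.0 normalized counts (median 21.9) in droughted plants, against 13.2 to 381 (median 145) in control plants. Bradi2g16120 had a log2 fold change of -2.44 ± 0.15 (SE, edgeR adjusted p = 3.16e-31). All 59 droughted plants lay below its control median, yet only 11 below the lowest control plant. Bradi1g61010 separated the treatments better, with 6.26 to 73.2 normalized counts (median 15.2) in droughted plants, against 32.3 to 167 (median 82.2) in control plants and 53 of 59 droughted plants below every control plant (log2 fold change -2.21 ± 0.11 (SE), edgeR adjusted p = 7.19e-40). Bradi1g45535 showed the same, at 8.29 to 71.2 normalized counts (median 29.5) in droughted plants, against 35.9 to 187 (median 125) in control plants, with 41 of 59 (log2 fold change -2.08 ± 0.09 (SE), edgeR adjusted p = 2.53e-44). The other 5 falls that the size rule selected, Bradi2g60441, Bradi1g17200, Bradi3g37680, Bradi2g02720 and Bradi1g69220, had log2 fold changes between -2.23 and -1.99. Of the abundant transcripts that fell at least 2-fold, Bradi3g48790 ranged from 312 to 859.9 normalized counts (median 479) in droughted plants, against 714 to 1491 (median 1002) in control plants (log2 fold change -1.03 ± 0.06 (SE), edgeR adjusted p = 1.38e-34) and Bradi4g26750 from 75.7 to 194 normalized counts (median 128.3) in droughted plants, against 183 to 558 (median 393) in control plants. Bradi4g26750 had a log2 fold change of -1.58 ± 0.06 (SE, edgeR adjusted p = 1.20e-52). In both, 56 of 59 droughted plants lay below the lowest control plant. Bradi1g08357 and Bradi4g12971 fell by 1.10 and 1.03 on the log2 scale with more overlap. Bradi1g65130, which the study's text names without a role, was close to lost: it was detected in 13 of 59 droughted plants and in all 58 control plants, at 0 to 3.44 normalized counts (median 0) in droughted plants, against 1.085 to 18.6 (median 5.96) in control plants. Bradi1g65130 had a log2 fold change of -4.06 ± 0.22 (SE, edgeR adjusted p = 1.68e-35). The study shows it as an example of a large difference in response between the accessions. In Bd21 it was near the floor, at a mean of 0.296 normalized counts in control plants and 0.052 in droughted plants. Its Bd3-1 log2 fold change minus that of Bd21 was -2.605 ± 1.88 (SE, edgeR adjusted p = 0.767) and was not called here.

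Transcripts of the photosynthesis modules fell broadly and modestly. The study grouped the loci of its light-reaction module by co-expression. It found them enriched for light harvesting and photosystem functions, which need not hold for every member. The first 48 of its longer list were used. Of these 48 loci, 42 were lower in droughted plants and none was higher, with a median log2 fold change of -0.52. That is 87.5% of the list, against the 15.8% of all genes that were called lower, and the study chose the list on these plants. Their summed abundance was 17548 to 85754 (median 34687) in droughted plants, against 25612 to 128130.0 (median 48945) in control plants, so plants of the treatments overlapped widely in the sum while most single loci were called. The largest fall with a mean of at least 10 was that of Bradi1g41115, at 0 to 19.9 normalized counts (median 6.15) in droughted plants, against 1.013 to 73.6 (median 14.7) in control plants. Bradi1g41115 had a log2 fold change of -1.49 ± 0.18 (SE, edgeR adjusted p = 1.24e-11). Of the 14 loci of the ferredoxin and Calvin cycle module, 8 were lower and none higher (median log2 fold change -0.21), with Bradi5g09340 the largest (log2 fold change -0.49 ± 0.11 (SE), edgeR adjusted p = 8.05e-05). Of the 84 plastid-encoded sequences 21 were lower and 4 higher, with a median log2 fold change of -0.12. In bulk leaves, fewer photosynthetic cells and less of these RNAs per cell cannot be told apart.

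Carbon metabolism moved in both directions, and its list counts stand beside 16.9% of all genes called higher and 15.8% called lower. The study chose these lists on these plants. All 4 loci of the starch-synthesis module were higher (median log2 fold change 0.85), summing to 795 to 1289 (median 1017) in droughted plants, against 418 to 809.5 (median 566) in control plants, so that the sums overlapped only slightly. Its largest rise was that of Bradi4g27570, at 68.0 to 239 normalized counts (median 146) in droughted plants, against 33.1 to 148 (median 69.5) in control plants. Bradi4g27570 had a log2 fold change of 1.04 ± 0.07 (SE, edgeR adjusted p = 5.47e-29). Of the 7 loci of starch breakdown and light signalling, 2 were called, both higher (4 with library totals alone), among them Bradi1g55560 (log2 fold change 1.54 ± 0.16 (SE), edgeR adjusted p = 2.25e-15), uncertain because 91.5% of its estimates were not whole. The 11 light and carbon loci of the study's text include Bradi2g48450, Bradi1g64687, Bradi3g04750 and Bradi3g52350, which the study places in secondary metabolism. Those 11 loci gave 6 higher (8 with library totals alone) and 1 lower. The lower was Bradi1g22050, a 6-phosphogluconolactonase of the oxidative pentose phosphate pathway, at 27.5 to 146 normalized counts (median 60.6) in droughted plants, against 52.5 to 253 (median 181) in control plants (log2 fold change -1.27 ± 0.09 (SE), edgeR adjusted p = 5.53e-26), and all 59 droughted plants lay under its control median. The lowest value of Bradi1g22050 was that of replicate 59, without which the lowest droughted plant was at 35.4. The galactosyltransferase Bradi2g56700 rose most (log2 fold change 1.98 ± 0.20 (SE), edgeR adjusted p = 5.07e-16), followed by the flavanone 2-hydroxylase Bradi2g48450 (log2 fold change 0.85 ± 0.14 (SE), edgeR adjusted p = 1.11e-07), the flavonol regulator Bradi1g64687 of the MYB family (log2 fold change 0.67 ± 0.17 (SE), edgeR adjusted p = 5.81e-04) and the endoglucanase Bradi5g14580 (log2 fold change 0.62 ± 0.09 (SE), edgeR adjusted p = 1.46e-08). The starch locus Bradi4g15010 and the pyruvate kinase Bradi3g33930 rose by less, with log2 fold changes of 0.32 ± 0.08 and 0.25 ± 0.07 (SE). Not called were the early light-induced protein Bradi1g55600 at 0.38, the glucanotransferase Bradi1g18650 at 0.15, the flavonoid 3'-hydroxylase Bradi3g04750 at 0.10 and the 4-coumarate:CoA ligase Bradi3g52350 at -0.13 on the log2 scale. The cell-wall invertase Bradi3g44990, which splits sucrose outside the cell, fell: it ranged from 25.3 to 129 normalized counts (median 41.0) in droughted plants, against 39.3 to 297 (median 60.3) in control plants. Bradi3g44990 had a log2 fold change of -0.61 ± 0.09 (SE, edgeR adjusted p = 2.54e-09).

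Most loci of the cell wall biogenesis module rose. Of the 30 loci of the cell wall biogenesis module 23 were higher and none was lower (median log2 fold change 0.55), against 16.9% of all genes called higher. Without replicate 59 the count was 21. The study grouped these loci by co-expression in these plants, so the count is not independent evidence of their direction. It found no such module in droughted Bd3-1. Bradi1g66720 rose most, at 4.76 to 82.6 normalized counts (median 26.3) in droughted plants, against 0 to 26.0 (median 5.87) in control plants. Bradi1g66720 had a log2 fold change of 2.09 ± 0.15 (SE, edgeR adjusted p = 1.53e-24). In the chlorophyll and terpenoid module, grouped in the same way, 20 of 30 loci were higher and 4 lower (median 0.50), against 16.9% and 15.8% of all genes. Its largest fall was that of Bradi3g15300 (log2 fold change -0.87 ± 0.12 (SE), edgeR adjusted p = 1.87e-10). NAC factors are a plant family with members that act in leaf ageing and stress responses. Of 5 named NAC loci, 4 rose: Bradi4g44000 ranged from 3.05 to 86.9 normalized counts (median 23.3) in droughted plants, against 1.12 to 23.4 (median 5.37) in control plants (log2 fold change 1.82 ± 0.15 (SE), edgeR adjusted p = 3.20e-20), whereas Bradi4g02060, Bradi3g59380 and Bradi1g63600 had log2 fold changes of 0.70 ± 0.08, 0.65 ± 0.18 and 0.53 ± 0.10 (SE). The remaining NAC locus, Bradi1g17480, was at -0.07 ± 0.08 and not called. The stay-green locus Bradi4g36060, whose product starts the breakdown of chlorophyll, rose, with 18.6 to 201 normalized counts (median 65.8) in droughted plants, against 17.0 to 101 (median 51.8) in control plants. Bradi4g36060 had a log2 fold change of 0.51 ± 0.11 (SE, edgeR adjusted p = 4.55e-05). A chlorophyll A-B binding protein in the same list, Bradi4g31257, was at -0.17 ± 0.07 (edgeR adjusted p = 0.0621), and was called lower with growth batch and plate terms (-0.18, edgeR adjusted p = 0.0304).

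Clock genes split. Of 26 loci of the circadian module 9 (34.6%) were higher and 10 (38.5%) lower, against 16.9% and 15.8% of all genes, with a median log2 fold change of -0.0038 (0.04 with library totals alone), so no common direction was seen. The morning-phased REVEILLE orthologs differed in sign: Bradi5g19380 (REVEILLE 2/7) was higher, at 4.79 to 71.0 normalized counts (median 26.5) in droughted plants, against 1.83 to 42.7 (median 13.3) in control plants (log2 fold change 0.82 ± 0.14 (SE), edgeR adjusted p = 3.72e-07), whereas its counterpart Bradi1g29680 (log2 fold change -0.47 ± 0.13 (SE), edgeR adjusted p = 0.0022) and the REVEILLE 6 ortholog Bradi3g51757 (log2 fold change -0.87 ± 0.08 (SE), edgeR adjusted p = 2.36e-18) were lower. Bradi3g51757 ranged from 20.8 to 85.3 normalized counts (median 40.1) in droughted plants, against 30.3 to 133 (median 81.0) in control plants, and the only droughted plant above its control median was replicate 59. The ortholog of LHY, Bradi3g16515, fell slightly (log2 fold change -0.34 ± 0.13 (SE), edgeR adjusted p = 0.0348), a call that library totals alone did not give. The ortholog of BROTHER OF LUX ARRHYTHMO, Bradi2g62067, was at -0.13 ± 0.11 and not called. The most strongly lowered locus of the module with a mean of at least 10 was the abundant Bradi2g47540, at 262 to 1351 normalized counts (median 690.5) in droughted plants, against 289.7 to 1976 (median 1120.5) in control plants. Bradi2g47540 had a log2 fold change of -0.70 ± 0.09 (SE, edgeR adjusted p = 4.25e-10). The ortholog of LNK3, a partner of the REVEILLE factors in Arabidopsis, Bradi2g10880, was at -0.24 ± 0.09 (edgeR adjusted p = 0.0339).

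Most loci of the glutathione and defence modules were lower, beside 15.8% of all genes called lower and 16.9% called higher. The study grouped the loci of each module by co-expression in plants of this series, the wounding and phenylpropanoid module in Bd21 alone. The lists thus come from the same experiment, and the counts are not independent evidence of direction. Of the first 48 loci of the glutathione module 32 fell and 2 rose (1 without replicate 59; median log2 fold change -0.44), with Bradi4g22656 (log2 fold change -1.27 ± 0.12 (SE), edgeR adjusted p = 1.54e-17) and Bradi3g51447 (log2 fold change 0.29 ± 0.07 (SE), edgeR adjusted p = 4.17e-04) the largest fall and rise with a mean of at least 10. Of the 34 loci of the defence module 20 fell and 2 rose (median -0.55). The largest fall was that of Bradi3g05296, at 19.2 to 330.4 normalized counts (median 68.0) in droughted plants, against 74.0 to 1338 (median 169) in control plants (log2 fold change -1.52 ± 0.18 (SE), edgeR adjusted p = 2.64e-12), and the largest rise that of Bradi1g37112 (log2 fold change 0.82 ± 0.26 (SE), edgeR adjusted p = 0.00843). The wounding and phenylpropanoid module gave 8 higher and 8 lower of 37, or 21.6% each way against 16.9% and 15.8% of all genes. Without replicate 59 there were 7 higher and 10 lower, and with growth batch and plate terms 8 and 10. The largest fall and rise were those of Bradi3g02130 (log2 fold change -1.52 ± 0.16 (SE), edgeR adjusted p = 2.45e-15) and Bradi1g09487 (log2 fold change 0.85 ± 0.19 (SE), edgeR adjusted p = 1.36e-04). Within the phenylpropanoid pathway, which leads to lignin and flavonoids, the entry enzymes were not called: the PAL ortholog Bradi5g15830 was at -0.28 ± 0.12 (edgeR adjusted p = 0.0596) and the C4H ortholog Bradi2g31510 at -0.01 ± 0.07. Without replicate 59, which held the highest PAL value of all droughted plants, Bradi5g15830 was called lower (-0.33, edgeR adjusted p = 0.0162), as it was with growth batch and plate terms and all plants kept (-0.29, edgeR adjusted p = 0.0384). Further on, Bradi5g19250 (F3H) and Bradi4g31380 (F3'H) fell, by 1.23 and 0.49 on the log2 scale, while the other F3H locus Bradi2g54090 and the polyphenol oxidase Bradi2g52260 were at -0.11 ± 0.26 and -0.11 ± 0.09 and not called. The R2R3 MYB factor Bradi2g11676 rose (log2 fold change 0.60 ± 0.09 (SE), edgeR adjusted p = 2.63e-08). Of the flavonoid and phenylpropanoid loci given above with carbon metabolism, Bradi2g48450 and Bradi1g64687 rose, and Bradi3g04750 and Bradi3g52350 were not called. Loci of the translation module changed little. Of its first 48 loci 3 (6.25%) rose and 11 (22.9%) fell (6 with library totals alone), against 16.9% and 15.8% of all genes. The median was -0.10. The largest called changes were Bradi2g21770 at 0.38 ± 0.07, 86.3% of whose estimates were not whole, and Bradi2g37310 at -0.45 ± 0.07.

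Among the other loci the study's text names, the serine-type endopeptidase Bradi5g18277 ranged from 30.3 to 694 normalized counts (median 296) in droughted plants, against 21.01 to 462 (median 169) in control plants (log2 fold change 0.81 ± 0.13 (SE), edgeR adjusted p = 9.19e-08) and the zinc transporter Bradi1g53680 from 75.7 to 714 normalized counts (median 364) in droughted plants, against 50.4 to 647 (median 247) in control plants. Bradi1g53680 had a log2 fold change of 0.43 ± 0.11 (SE, edgeR adjusted p = 0.00152). For both, the lowest droughted plant was replicate 59, without which the lowest values were 82.7 for Bradi5g18277 and 127.7 for Bradi1g53680. The leucine-rich repeat locus Bradi3g00920 rose on few counts, at 0 to 17.9 normalized counts (median 3.71) in droughted plants, against 0 to 5.65 (median 1.46) in control plants (log2 fold change 1.06 ± 0.19 (SE), edgeR adjusted p = 1.37e-06), and its highest value was that of replicate 59, without which the highest was 10.3. The metallo-beta-lactamase Bradi3g45230 was called higher only at the threshold (log2 fold change 0.17 ± 0.07 (SE), edgeR adjusted p = 0.05). The allene oxide cyclase of jasmonic acid synthesis, Bradi1g15840, was at -0.10 ± 0.08, the jacalin-like lectin Bradi3g19730 at 0.18 ± 0.18 and Bradi4g20520, of unknown function, at 0.52 ± 0.28, none of them called. Without replicate 59 the log2 fold change of Bradi4g20520 was 0.24.

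**Figure D3:**
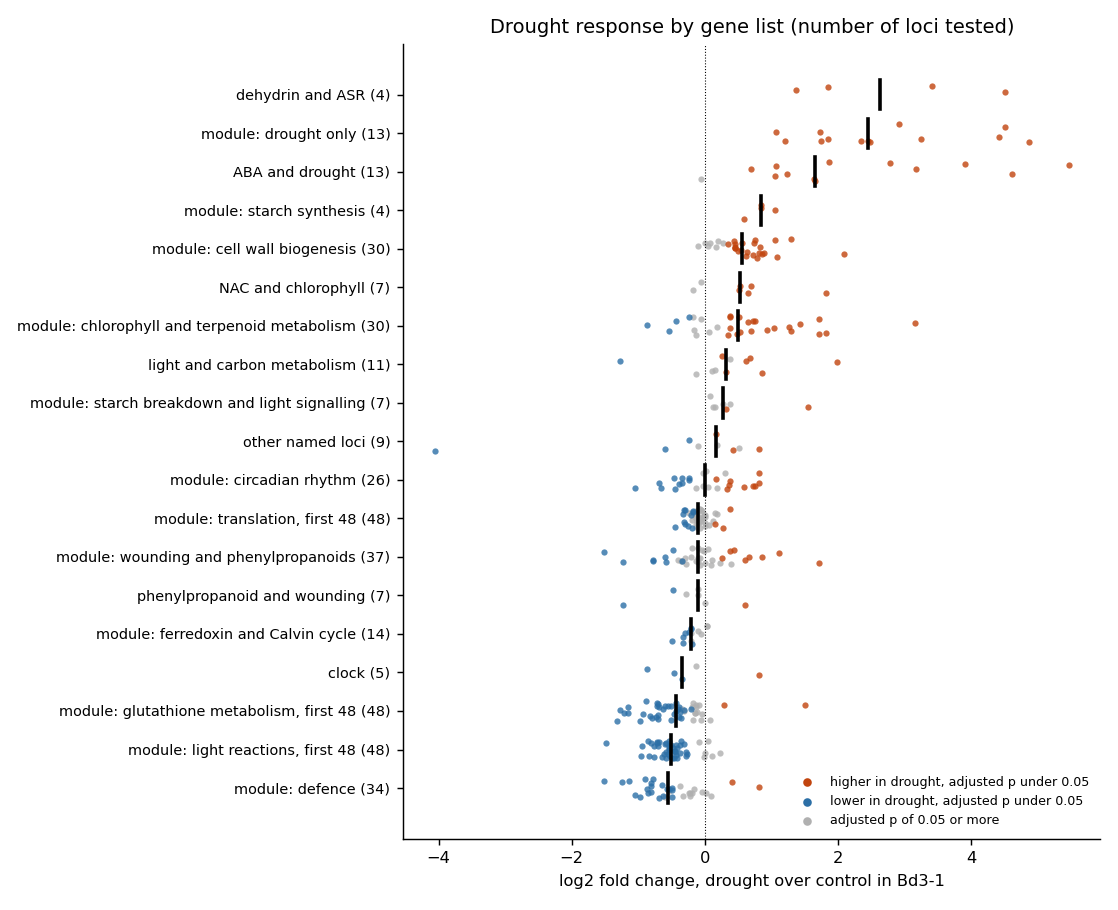
Log2 fold change (drought over control, x axis) of each tested locus in the study's gene lists (rows, with the number of loci tested), 1 point per locus, orange if called higher, blue if called lower and grey if not called, with a black bar at the list's median. Medians run from -0.55 for defence to 2.62 for the dehydrin and ASR list, which includes the IAR4 ortholog.

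The plants were grown in 4 growth batches, each with 14 or 15 plants per treatment, and the drought effect was fitted in each alone. Genes called at an adjusted p under 0.05 numbered 3816 in batch 1, 2388 in batch 2, 3155 in batch 3 and 2015 in batch 4, or 15.5%, 9.69%, 12.8% and 8.18% of those tested. Without replicate 59, batch 4 gave 2103. Of the 8065 genes called over all plants, 7537 (93.5%) had the same direction in all 4 batches, beside 21.8% of the genes not called. Of the 8065, 0 were called in the opposite direction in any batch. The batches make up the plants that gave the calls, so these shares are partly set by the selection. In all 4 batches 584 genes were called higher and 575 lower. By batch, the median size of the change over the 8065 genes was, on the log2 scale, 0.42 in batch 1, 0.36 in batch 2, 0.38 in batch 3 and 0.34 in batch 4. On PC1 without replicate 59 the droughted plants exceeded the control plants by 57.8 in batch 1, 48.2 in batch 2, 50.7 in batch 3 and 45.8 in batch 4. The difference between batches was not tested. Among single genes, Bradi2g54810 lay between 2.25 and 2.38 and Bradi4g26750 between -1.74 and -1.41 on the log2 scale over the 4 batches. Among the 4 loci of the dehydrin and ASR list, which includes the IAR4 ortholog, Bradi1g37410 varied most, with 2.85 and 5.54. In the chlorophyll and terpenoid module the median was 0.91 in batch 1 and from 0.30 to 0.37 in the other 3, and in the defence module it was -0.78 and -0.83 in batches 1 and 3 but -0.18 and -0.28 in batches 2 and 4.

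**Figure D4:**
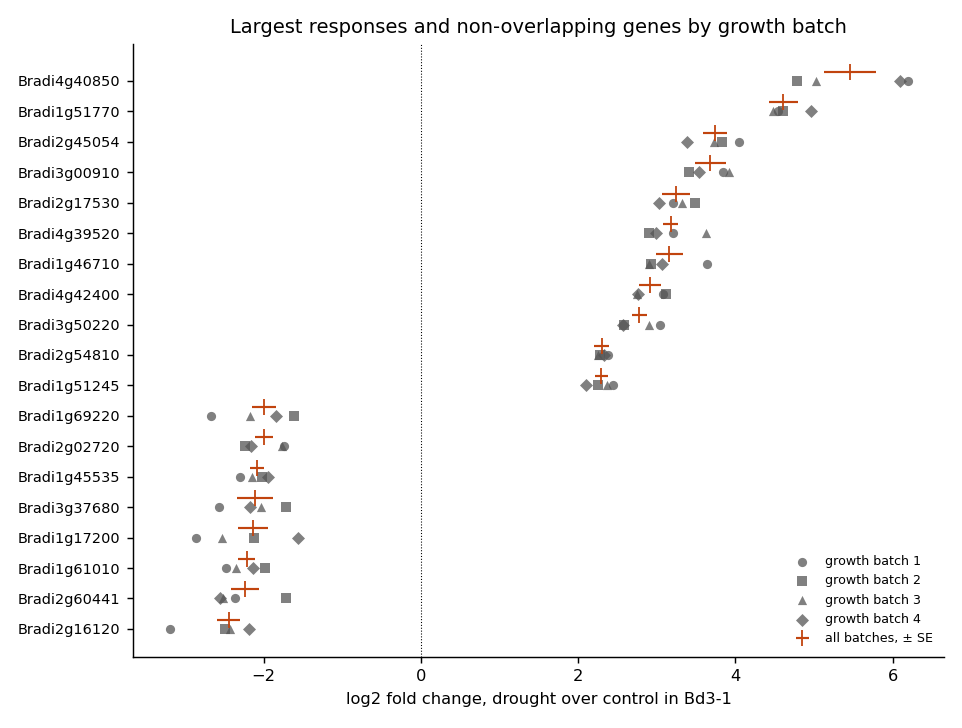
Log2 fold change (drought over control, x axis) of the genes with the largest responses and of those without overlap (rows), with grey markers for each of the 4 growth batches and an orange cross for all batches with its SE. Every marker lies on the same side of 0 as the value over all batches, and Bradi2g54810 lies between 2.25 and 2.38.

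Whether the response was particular to Bd3-1 was asked through the difference between the accessions' responses, fitted over all 214 plants as the Bd3-1 log2 fold change minus that of Bd21. It passed an adjusted p under 0.1 for 433 of 26164 genes (1.65%), 289 of them with a more positive response in Bd3-1 and 144 with a more negative. In that model the drought effect was called for 8100 genes in Bd3-1 and 5919 in Bd21, and 4502 were called in both with the same direction, which is 55.6% of the Bd3-1 calls and 76.1% of the Bd21 calls. A further 17 were called in opposite directions. Of the 433 genes, 333 were also called for drought in Bd3-1 plants alone: 218 rose with a more positive response than in Bd21, 97 fell with a more negative one, 13 rose with a more negative and 5 fell with a more positive one. Fewer Bd21 plants were sampled, so the counts of calls in each accession are not on an equal footing, and Bd3-1 reads were aligned to Bd21 sequences.

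Among called genes with a mean of at least 10, the largest positive difference was that of Bradi3g20677. It had 16.5 to 275 (median 111) normalized counts in droughted Bd3-1 and 0.866 to 116 (median 17.8) in control Bd3-1, against 25.9 to 122 (median 51.5) in droughted Bd21 and 7.73 to 79.6 (median 30.9) in control Bd21. Its log2 fold change was 2.70 ± 0.14 in Bd3-1 and 0.68 ± 0.15 in Bd21 (difference 2.02 ± 0.21 (SE), edgeR adjusted p = 7.27e-15). Bradi3g42430 had 13.6 to 274 (median 100.2) normalized counts in droughted Bd3-1 and 5.01 to 88.9 (median 24.2) in control Bd3-1, against 5.36 to 34.1 (median 15.9) in droughted Bd21 and 0 to 29.1 (median 12.0) in control Bd21. The median of droughted Bd3-1 plants lay above the highest Bd21 plant, and the log2 fold changes were 1.93 ± 0.13 in Bd3-1 and 0.37 ± 0.18 in Bd21 (difference 1.56 ± 0.22 (SE), edgeR adjusted p = 1.63e-07). The difference of Bradi5g00063 rests on replicate 59 alone: that library held 8172 normalized counts, and the other droughted Bd3-1 plants at most 376, whereas medians were 8208 in droughted Bd21 and 8437 in control Bd21. Of its estimates, 98.2% were not whole. Without that library the drought log2 fold change in Bd3-1 was 0.08 (edgeR adjusted p = 0.834), and the difference was 0.14 (edgeR adjusted p = 0.931).

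On the negative side stood the close-numbered loci Bradi3g05292 and Bradi3g05296, of which Bradi3g05296 is a member of the defence module. Bradi3g05292 had 2.90 to 38.0 (median 8.29) normalized counts in droughted Bd3-1 and 14.1 to 83.8 (median 36.4) in control Bd3-1, against 8.78 to 59.6 (median 21.5) in droughted Bd21 and 7.53 to 65.6 (median 18.7) in control Bd21. It fell in Bd3-1 and did not change detectably in Bd21, with log2 fold changes of -1.99 ± 0.11 in Bd3-1 and 0.09 ± 0.12 in Bd21 (difference -2.08 ± 0.16 (SE), edgeR adjusted p = 1.20e-23). Bradi3g05296 had log2 fold changes of -1.52 ± 0.19 in Bd3-1 and -0.19 ± 0.20 in Bd21 (difference -1.33 ± 0.27 (SE), edgeR adjusted p = 7.99e-04), and Bradi2g27680 of -1.47 ± 0.18 in Bd3-1 and -0.36 ± 0.19 in Bd21 (difference -1.12 ± 0.26 (SE), edgeR adjusted p = 0.00753). Among ABA and drought loci, 4 of 13 differed, beside 1.65% of all genes. The study drew these loci from a module that it found only in droughted Bd21. It named Bradi3g00920 for its strong difference between the accessions, so the count is partly set by that choice. The ATHB-7 ortholog Bradi3g50220 responded more in Bd3-1, with 2.78 ± 0.10 in Bd3-1 and 2.07 ± 0.09 in Bd21, from a control level that was lower, its medians being 11.8 in control Bd3-1 and 22.9 in control Bd21. The stomatal locus Bradi3g39800 responded less, with 1.87 ± 0.11 in Bd3-1 and 2.56 ± 0.15 in Bd21, and it had 35.4 to 194 (median 82.3) normalized counts in droughted Bd3-1 and 5.91 to 66.5 (median 22.4) in control Bd3-1, against 16.7 to 130.2 (median 42.0) in droughted Bd21 and 0 to 18.7 (median 7.23) in control Bd21. Bradi3g00920 was far weaker in Bd3-1: it had 0 to 18.2 (median 3.81) normalized counts in droughted Bd3-1 and 0 to 5.78 (median 1.49) in control Bd3-1, against 2.96 to 251 (median 42.7) in droughted Bd21 and 1.03 to 9.45 (median 4.66) in control Bd21, and log2 fold changes of 1.06 ± 0.28 in Bd3-1 and 3.48 ± 0.18 in Bd21 (difference -2.42 ± 0.38 (SE), edgeR adjusted p = 2.85e-06). The highest droughted Bd3-1 value was that of replicate 59, and without it the difference was -2.48. The wax locus Bradi2g23740 did not change detectably in Bd3-1 and fell in Bd21, with -0.06 ± 0.08 in Bd3-1 and -0.49 ± 0.08 in Bd21. Estimates of Bradi3g50220 and Bradi2g23740 are uncertain, 95.7% and 72.6% of them in Bd3-1 not being whole. No difference passed the threshold for the NCED ortholog, either HAB ortholog, the LEA locus or either dehydrin.

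**Figure D5:**
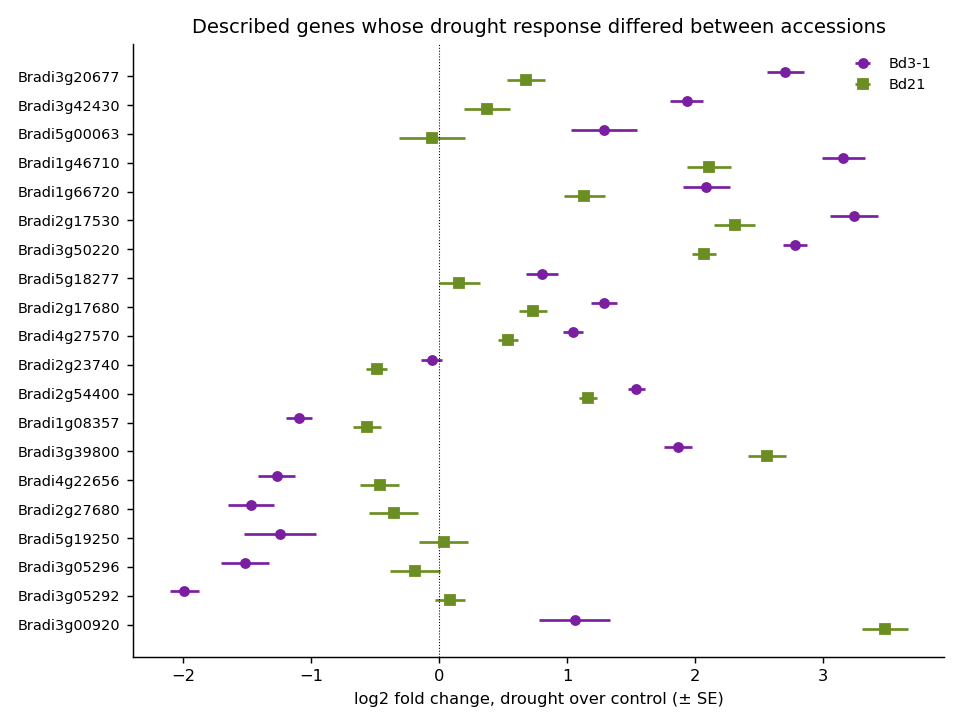
Drought log2 fold changes with SE (x axis) in Bd3-1 (purple circles, n = 59 and 58) and Bd21 (green squares, n = 49 and 48) for the described genes whose responses differed at an adjusted p under 0.1 (rows, sorted by the difference). Bradi3g20677 has the largest positive difference at 2.02 and Bradi3g00920 the largest negative at -2.42, and the value of Bradi5g00063 rests on droughted replicate 59.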

How the data were processed

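The authors made 3′ tag libraries from leaf RNA, and per the labels the submitters' processing notes name Trimmomatic 0.39, cutadapt 2.10, Bowtie2 2.4.0 and RSEM 1.3.3. They deposited expected counts per transcript, which share reads among transcripts, and 86.3% of those above 0 were whole. Expected counts were rounded and matched to plants by the header number, leaving 0 sample columns unused. Growth batches came from the study's supplementary table.

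Drought was tested in Bd3-1 alone with edgeR 4.0.16 (quasi-likelihood test, TMM factors, R 4.3.3) on rows above 0 in more than 10 plants, with Benjamini-Hochberg adjustment and a threshold of 0.05 (0.1 for the difference from Bd21). Normalized counts are TMM-scaled. On simulated data the test was tested before use. Alternatives used DESeq2 1.42.0, other scaling, filters, batch and plate terms, and leaving out droughted replicate 59. Group scores were compared by permutation with 100000 resamples.

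Described genes were the 56 loci the study's text names, the 8 largest rises and 8 largest falls (called, mean of at least 10, at least 50 of 59 droughted plants on that side of the control median), the 4 most abundant called genes per direction with at least a 2-fold change, the 3 largest differences from Bd21 per sign, the largest called rise and fall with a mean of at least 10 in each module list, and genes without overlap. Loci with over 50% of estimates not whole are called uncertain. The genes, lists and tests were chosen with earlier results of these data known. Each library is 1 plant. No locus of the table matched the reference gene table, so no sequence or coordinate is given. Intervals of counting were not used, since spread between plants sets the errors.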

Additional observations from a re-analysis of the deposited data

Results flagged for a closer look

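The drought response differed between Bd3-1 and Bd21 at an edgeR adjusted p under 0.1 for 20 of the 98 described genes, beside 1.65% of all genes, given as the Bd3-1 log2 fold change minus that of Bd21. The difference was positive for Bradi3g20677 (2.02), Bradi3g42430 (1.56), Bradi5g00063 (1.35), Bradi1g46710 (1.05), Bradi1g66720 (0.96), Bradi2g17530 (0.93), Bradi3g50220 (0.71), Bradi5g18277 (0.65), Bradi2g17680 (0.55), Bradi4g27570 (0.51), Bradi2g23740 (0.43) and Bradi2g54400 (0.38). It was negative for Bradi3g00920 (-2.42), Bradi3g05292 (-2.08), Bradi3g05296 (-1.33), Bradi5g19250 (-1.28), Bradi2g27680 (-1.12), Bradi4g22656 (-0.80), Bradi3g39800 (-0.69) and Bradi1g08357 (-0.54). Without droughted replicate 59 the difference of Bradi5g00063 was 0.14 (edgeR adjusted p = 0.931), and the other 19 still passed the threshold. Of the 20, 6 were described because their differences were the largest (Bradi3g20677, Bradi3g42430, Bradi5g00063, Bradi3g05292, Bradi3g05296 and Bradi2g27680). The study's text itself names Bradi3g00920 and Bradi5g18277 for such a difference. The count is thus partly set by how the genes were chosen. The part of read alignment to Bd21 sequences, or of reads shared between transcripts, in these differences was not tested.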

How the results depend on the processing

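Called genes numbered 7908 to 8237 under every alternative that kept all plants and did not narrow the tested set, and 8081 without droughted replicate 59, beside 8065. The filterByExpr filter tested 12329 genes and called 6054, with 155 rising and 131 falling at least 2-fold beside 574 and 390, since it tests fewer genes of low counts. Library totals alone gave 5117 up and 3120 down. The median of the phenylpropanoid and wounding loci was -0.23 without replicate 59, beside -0.11. Of 98 described genes, 90 kept direction and side of the threshold under all alternatives that tested them (the filterByExpr filter left out 8). The calls of Bradi5g00063, Bradi3g45230, Bradi3g16515 and Bradi2g10880 were lost under at least 1 alternative. Differences from Bd21 numbered 444 without replicate 59, 450 with RLE factors, 497 with batch and plate terms and 521 with DESeq2, beside 433. No alternative reversed a described gene that was called.

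Replicate numbers did not pair the plants: over 58 shared numbers the correlation of deviations ran from -0.16 to 0.40 (median 0.11), 30 of 58 exceeded 0.1, and 1 plant pair correlated best with its own number. The fit with the replicate number as a block called 7937 genes, and among described genes it added calls for Bradi1g55600, Bradi1g18650, Bradi5g15830 and Bradi4g31257 and lost those of Bradi3g16515 and Bradi5g00063.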

Other observations

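Beyond the 4 genes without overlap, 193 genes had at least 30 droughted plants above the highest control plant and 135 had at least 30 below the lowest. Among the 11923 genes with a mean of at least 10 normalized counts, the SD of log2 values was larger in droughted plants for 48.9%. That share was 39.3% for genes called higher and 64.0% for genes called lower. Without replicate 59 the shares were 46.1%, 35.8% and 61.1%. The SD of log2 values also depends on the level of counts, which differs between treatments in called genes. The shares for called genes are thus not a measure of spread alone.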
